A study of Macaca mulatta with 52 samples.

Results

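Rhesus monkey expanded blastocysts were compared with 8-cell embryos in RNA-seq libraries made from single embryos by single primer isothermal amplification (SPIA), a method that copies the small amount of RNA in one embryo at constant temperature. The comparison held 14 expanded blastocysts and 9 8-cell embryos, 23 of the 49 libraries analysed here, and was chosen by stage and library kit as the labels give them. Of the 8-cell SPIA samples, 2 had no matching column in the count table and were not analysed here. All embryos came from oocytes matured in vivo in females given recombinant human FSH and hCG, were fertilised in vitro and were cultured in a protein-free medium and then with calf serum, without or with relaxin. Which embryos received relaxin, the age of each embryo and its sex were not given in the labels. Each library is a separate whole embryo, so all cell types of a blastocyst are mixed in it, and fewer cells of a type cannot be told apart from less RNA per cell. Embryos whose titles share a numeric code may share parents or a day of collection, which the labels do not say. No code is shared between the stages, so code and stage cannot be told apart.

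The 8-cell stage is where a primate embryo turns over from the RNA and protein stored in the egg to transcripts of its own genome. A burst of short-lived transcription factors, among them ZSCAN4 and LEUTX, marks that step, while stored maternal RNAs are cleared. By the expanded blastocyst the outer cells have become trophectoderm, a sealed transporting epithelium that pumps fluid into a cavity and will form placenta, and the inner cells have begun to divide into pluripotent epiblast and primitive endoderm, which will line the yolk sac.

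Total counts ran from 5.08 M to 20.6 M per 8-cell library (median 13.8 M) and from 0.601 M to 11.7 M per expanded blastocyst (median 6.57 M). The totals were lower in expanded blastocysts (exact two-sided permutation test of the means, p = 0.000873, adjusted over 3 measures 0.00131). This test and the other permutation tests of this paragraph took each embryo as independent. The embryos fall under 3 title codes at the 8-cell stage and 4 at the expanded blastocyst stage. If embryos of 1 code are alike, these p-values are too small. A block of 12 abundant identifiers without a gene name took a median of 25.9% of the counts in 8-cell libraries (2.85 to 45.9%) and 56.6% in expanded blastocysts (24.8 to 70.3%), a larger share in the later stage (exact two-sided permutation test, p = 0.000110, adjusted p = 0.00033). Without those identifiers 5580 genes were called between the stages, in place of the 5708 given below. At a common depth of 600966 counts, a median of 9647 identifiers were detected per 8-cell embryo and 9749 per expanded blastocyst (exact permutation p = 0.395). That depth includes the 12 abundant identifiers, whose share was larger in expanded blastocysts. Fewer of the 600966 counts were thus left there for the other identifiers, so the similar numbers do not show equal diversity. The median Spearman correlation over tested genes was 0.741 between 8-cell libraries, 0.838 between expanded blastocysts and 0.668 across the stages, and all 23 libraries had a higher mean correlation with their own stage.

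A pair of libraries stood apart and recur below. The 8-cell embryo 020816_09 held 41094 CPM (counts per M of library size after TMM scaling) of the oocyte genes described below, against 2000 to 9901 CPM in the other 8-cell libraries, and 632 CPM of the genome activation genes, against 1677 to 2750. The expanded blastocyst 111715_05 had the smallest total, 0.601 M counts, and held 100646 CPM of MBD4 and 76444 CPM of AKAP12. Without both libraries, 4767 of the 5613 called genes that could still be tested kept their call and direction. Counts and values that this changes are given beside some of the results, not all. Gene lists printed below without a second count moved too. Higher citrate cycle and pyruvate dehydrogenase genes went from 9 to 12, and lower histone modifiers from 11 to 9.

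Between the stages, 5708 of 15578 genes tested (36.6%) passed an adjusted p of 0.05 in edgeR's quasi-likelihood test. Of these, 2017 genes (12.9% of those tested) were higher and 3691 (23.7%) lower in expanded blastocysts, 1697 and 2885 of them by more than 4-fold (a log2 fold change beyond 2). In 184 genes (1.18%) every expanded blastocyst lay above every 8-cell library, and in 147 (0.944%) every expanded blastocyst lay below. The median log2 fold change (expanded blastocyst over 8-cell) of all genes was -0.43. The median CPM of the stages split the other way. It was higher in expanded blastocysts for 7306 tested genes (46.9%) and lower for 6357 (40.8%). Of the 2017 higher calls 1653 had a higher median CPM, and of the 3691 lower calls 3076 had a lower one. The excess of lower calls is therefore not an excess of genes with a lower median. The split of the calls depended on the fit. The higher genes were 35.3% of the calls in the edgeR fit, 38.8% with DESeq2 size factors, 44.9% in DESeq2, 65.9% in limma-voom and 39.3% in edgeR without the 2 libraries that stood apart. With every library thinned to 600966 counts and only the compared stages fitted, 2157 of 5340 tested genes were called, 1029 higher and 1128 lower. With DESeq2 size factors the median over all genes was -0.31, and in limma-voom it was 0.50. Part of the lower genes had most of their 8-cell level in 1 embryo: in 1738 of the 3691 (47.1%) a single 8-cell library held more than 50% of the CPM summed over that stage, and in 846 of these it was 020816_09. Such a gene can keep its call without that embryo. Without 020816_09, 4808 of the 5615 called genes that could still be tested kept their call. Among the 2017 higher genes the same held for 397 (19.7%), of which 54 for 111715_05.

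The chosen marker genes separated the stages in every library. Levels here and below are the median CPM of a stage, with its lowest and highest library in brackets, and ± marks the standard error of a log2 fold change. GATA2, a trophectoderm transcription factor, had 0.490 CPM (0.0828 to 6.37) in 8-cell libraries and 244 CPM (9.14 to 352) in expanded blastocysts, a log2 fold change of 7.36 ± 1.47 (edgeR, adjusted p = 0.000279). KRT18, a keratin of simple epithelia, had 0.471 CPM (0 to 8.62) and 217 CPM (32.0 to 476), a log2 fold change of 7.48 ± 0.91 (edgeR adjusted p = 1.06e-07). The lowest expanded blastocyst for both genes was 111715_05, which still exceeded the highest 8-cell library. With 0.601 M counts in that library, its GATA2 level of 9.14 CPM rests on few reads. In the other direction, ZSCAN4 went from 150.2 CPM (116 to 215) to 0.789 CPM (0 to 44.4), a log2 fold change of -4.63 ± 1.03 (edgeR adjusted p = 0.000723), and LEUTX from 139 CPM (25.8 to 356) to 0.557 CPM (0 to 20.6), a log2 fold change of -6.18 ± 1.28 (edgeR adjusted p = 0.000403). The expanded blastocyst with the most ZSCAN4 was 112415_04, and it lay below every 8-cell embryo. In the SoLo libraries, a second kit with ribosomal RNA depletion applied to some of the same embryos, GATA2, KRT18 and ZSCAN4 kept their calls, while LEUTX had a log2 fold change of -3.93 (edgeR adjusted p = 0.0817).

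**Figure D1:**
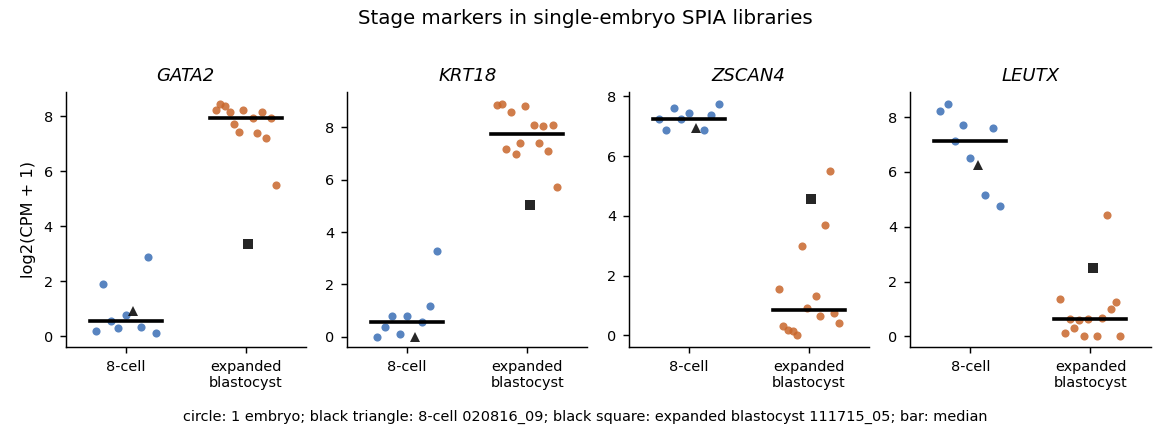
Level of 4 marker genes in each SPIA library (y axis, log2 of CPM + 1) at the 8-cell stage (9 libraries) and the expanded blastocyst stage (14 libraries). Each circle is an embryo, the bar is the median, the triangle is 8-cell embryo 020816_09 and the square is expanded blastocyst 111715_05. The stages do not overlap for any of the 4 genes.

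Of 29 genes listed for 8-cell genome activation, 11 carried a name in the table and all 11 could be tested. All were lower in expanded blastocysts (100%, against 23.7% of all genes tested), with a median log2 fold change of -5.40. For 5 of them, CCNA1, LEUTX, SLC34A2, ZNF280A and ZSCAN4, no expanded blastocyst reached the lowest 8-cell library. The same held for 0.944% of all genes tested. LEUTX and ZSCAN4 are also the markers chosen for this contrast. ZNF280A, a zinc finger gene, was still detected in every expanded blastocyst, with 398 CPM (113 to 686) in 8-cell embryos and 21.5 CPM (9.12 to 82.7) later (log2 fold change -3.78 ± 0.47, edgeR adjusted p = 8.02e-08). TPRX1, a homeobox factor of genome activation, had 56.1 CPM (0.182 to 216) and 0.183 CPM (0 to 2.29), a log2 fold change of -7.35 ± 1.21 (edgeR adjusted p = 1.34e-05). KLF17, a Krüppel-like factor of the early human embryo, had 130.1 CPM (0.821 to 372) and 0.683 CPM (0 to 15.9), a log2 fold change of -6.20 ± 0.99 (edgeR adjusted p = 1.01e-05). The lowest 8-cell library of both TPRX1 and KLF17 was 020816_09, and the next lowest held 33.9 and 68.0 CPM. The KRAB zinc finger gene ZIM3 fell from a median of 554 CPM to 4.45 CPM, with 1 expanded blastocyst at 126 CPM, and CCNA1, a cyclin of early divisions and meiosis, fell from 126 to 0.522 CPM. All 11 were also called lower without the 2 libraries that stood apart, and 10 of the 11 in the SoLo libraries (where 19.8% of all genes were lower), LEUTX being the exception.

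Of 44 genes on the oocyte and maternal effect list, 34 carried a name in the table and were tested, and 29 of these were lower in expanded blastocysts (85.3%, against 23.7% of all genes), 2 were higher, and 3 did not pass the test. The median log2 fold change was -4.44. The zona pellucida genes, which encode the coat of the egg, fell together: ZP2 went from 265 CPM (117 to 1817) to 9.66 CPM (1.81 to 128), a log2 fold change of -4.83 ± 0.67 (edgeR adjusted p = 1.55e-06), and ZP1, ZP3 and ZP4 had log2 fold changes of -5.35, -2.78 and -5.21. OTX2, a homeobox factor stored in the primate egg, fell from a median of 1442 CPM to 22.0 CPM (log2 fold change -6.09 ± 0.88, edgeR adjusted p = 4.91e-06). KPNA7, the egg's own nuclear import receptor, fell from 90.9 to 5.31 CPM. Without the 2 libraries that stood apart 27 genes were lower and 2 higher. TCL1A and GTSF1 were the calls lost there, GTSF1 with a log2 fold change of -2.54 in all libraries and -0.63 (edgeR adjusted p = 0.368) without the 2, and TCL1A with -4.53 and -2.70 (edgeR adjusted p = 0.0628).

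The NLRP genes, a family of large cytoplasmic proteins many of which are stored in the egg, split in direction. Of 13 tested, 3 were higher (23.1%, against 12.9% of all genes) and 9 lower (69.2%, against 23.7%), and not all are named here. NLRP7 rose from 159 CPM (38.2 to 597) to 1767 CPM (932 to 2700.4), a log2 fold change of 3.04 ± 0.40 (edgeR adjusted p = 3.12e-07), and NLRP2 rose from 131 CPM (60.9 to 351) to 1047 CPM (521 to 1737), a log2 fold change of 2.81 ± 0.33 (edgeR adjusted p = 2.63e-08). In both genes every expanded blastocyst lay above every 8-cell embryo. NLRP4 fell from 965 CPM (103 to 4409) to 18.1 CPM (2.31 to 238), a log2 fold change of -5.39 ± 0.68 (edgeR adjusted p = 4.97e-07), and NLRP9 fell from a median of 533 to 29.2 CPM (-4.78 ± 0.62, edgeR adjusted p = 5.75e-07). NLRP5, NLRP8, NLRP11, NLRP13 and NLRP14 were also lower, with log2 fold changes from -6.86 (NLRP8) to -2.91 (NLRP5). The subcortical maternal complex, a protein assembly under the egg membrane, was uneven. Its members NLRP5, TLE6 (-3.17) and PADI6 (-4.43), an enzyme tied to the same structure, fell, while OOEP (-0.20, edgeR adjusted p = 0.776) and KHDC3L (0.42, edgeR adjusted p = 0.616) did not pass the test. The medians of KHDC3L were 52.2 CPM at the 8-cell stage and 119 CPM in expanded blastocysts.

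Among 18 tested genes for storing and clearing maternal RNA, 7 were lower (38.9%, against 23.7% of all genes) and 3 higher (16.7%, against 12.9%). BTG4, the adaptor that brings the deadenylase to maternal RNAs, fell from 43.1 CPM (2.91 to 1169.9) to 1.56 CPM (0 to 20.6), a log2 fold change of -6.26 ± 1.07 (edgeR adjusted p = 3.42e-05). PATL2, an egg protein that represses stored RNAs, fell from a median of 39.7 to 1.31 CPM (-4.55 ± 0.89, edgeR adjusted p = 0.000119). YTHDF2 was lower as well (-1.43 ± 0.41, edgeR adjusted p = 0.0061). The 3 higher genes were DDX6, a helicase of RNA granules (1.15 ± 0.31), PAN2, a deadenylase (2.69 ± 0.72), and CNOT1, the scaffold of the CCR4-NOT complex (0.81 ± 0.26), with edgeR adjusted p of 0.00351, 0.00324 and 0.0113. The lower calls of EIF4ENIF1 and CNOT7 rested on 020816_09, without which their log2 fold changes were -0.94 and -0.18 (edgeR adjusted p = 0.161 and 0.751).

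No tested gene of the germline and piRNA list was higher in expanded blastocysts, and 18 of 24 were lower (75.0%, against 23.7% of all genes; median log2 fold change -3.62), and 16 were lower without the 2 libraries that stood apart. The piRNA pathway silences transposons in germ cells through PIWI proteins and small RNAs. MAEL, one of its nuclear factors, had 157 CPM (93.9 to 444) in 8-cell libraries and 3.73 CPM (0.903 to 77.7) in expanded blastocysts (log2 fold change -4.36 ± 0.64, edgeR adjusted p = 2.18e-06). PIWIL3, a PIWI protein of the egg in several mammals, fell from a median of 83.0 to 3.56 CPM, TDRD1 from 59.5 to 1.85 CPM and the helicase MOV10L1 from 21.9 to 0.251 CPM. SYCP2, part of the synaptonemal complex that pairs chromosomes in meiosis, fell from 156 CPM (55.9 to 1216) to 4.53 CPM (0.738 to 34.3), a log2 fold change of -4.80 ± 0.77 (edgeR adjusted p = 1.14e-05). In MAEL, SYCP2 and TDRD1 the stages did not overlap. DDX4, the germ cell helicase, had medians of 30.6 and 18.2 CPM and did not pass the test (log2 fold change -0.83 ± 0.61, edgeR adjusted p = 0.296).

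Genes that copy DNA methylation fell and genes that lay it down afresh rose. Methylation is copied after replication by DNMT1, which UHRF1 brings to the new strand, is laid down afresh by DNMT3A and DNMT3B with the cofactor DNMT3L, and is removed through the TET oxidases and the glycosylase TDG. DNMT1 had 4509 CPM (706 to 49172) in 8-cell libraries and 62.9 CPM (30.7 to 663) in expanded blastocysts, a log2 fold change of -6.36 ± 0.80 (edgeR, adjusted p = 6.3e-07), and the stages did not overlap. The highest 8-cell library was 020816_09; without the 2 libraries that stood apart the change was -5.78 (edgeR adjusted p = 1.08e-08). UHRF1 fell from 347 CPM (20.1 to 2599) to 14.7 CPM (6.32 to 84.6), a log2 fold change of -4.97 ± 0.71 (edgeR adjusted p = 2.49e-06). DNMT3B rose from 30.7 CPM (9.42 to 329) to 984 CPM (119 to 1373), a log2 fold change of 3.77 ± 0.62 (edgeR adjusted p = 1.65e-05), with overlapping ranges.

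TET2 rose from 55.2 CPM (5.36 to 192) to 1257 CPM (240.0 to 2163), with no overlap (log2 fold change 4.02 ± 0.63, edgeR adjusted p = 8.93e-06). DNMT3A rose from a median of 64.0 to 306 CPM (2.0 ± 0.50), DNMT3L from 1.90 to 84.9 CPM (2.75 ± 0.78) and TDG from 0.529 to 31.7 CPM (4.12 ± 0.90), with edgeR adjusted p of 0.00155, 0.00531 and 0.000417. TET1 was also higher (2.04 ± 0.47, edgeR adjusted p = 0.000788), and more so without 8-cell embryo 011516_02, which held 855 CPM (3.28, edgeR adjusted p = 2.52e-08). In all, 6 of 16 tested genes of the list were higher (37.5%, against 12.9% of all genes) and 4 lower, a share of 25% that is near the 23.7% over all genes. The lower calls of TET3 and UHRF2 were not kept without the 2 libraries that stood apart (-0.73 and -0.76, edgeR adjusted p = 0.296 and 0.146), and that of UHRF2 was lost on leaving out any of 16 single libraries. TET3 also lost its call without expanded blastocyst 111215_03 (-1.36, edgeR adjusted p = 0.0514).

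**Figure D2:**
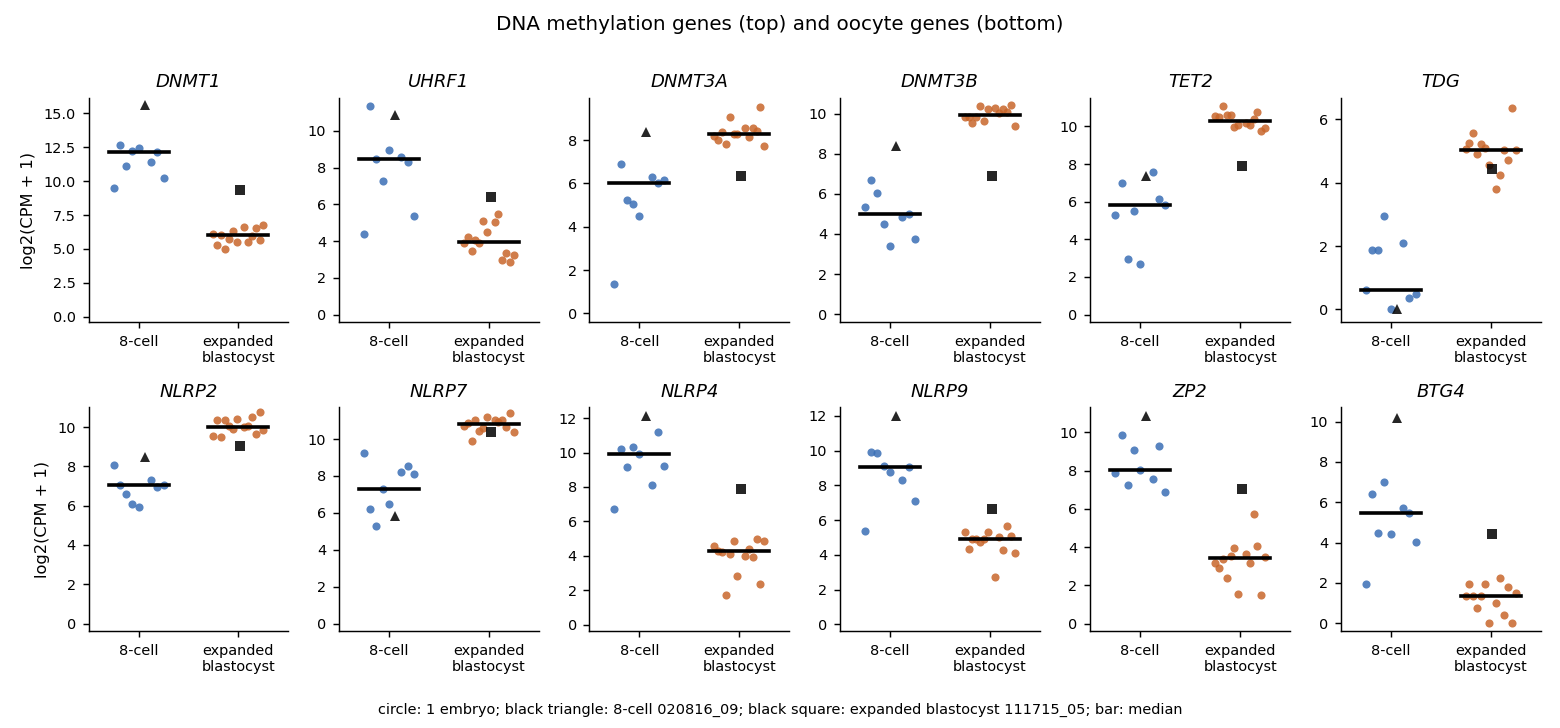
Level in each SPIA library (y axis, log2 of CPM + 1) of 6 DNA methylation genes (upper row) and 6 oocyte genes (lower row) in 9 8-cell embryos and 14 expanded blastocysts. Circles are embryos, bars are medians, the triangle is 8-cell embryo 020816_09 and the square is expanded blastocyst 111715_05. DNMT1 and UHRF1 lie lower and DNMT3B, TET2, TDG and DNMT3A higher in expanded blastocysts, and NLRP2 and NLRP7 lie higher while NLRP4, NLRP9, ZP2 and BTG4 lie lower.

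Of 19 tested trophectoderm transcription factors, 8 were higher in expanded blastocysts (42.1%, against 12.9% of all genes) and 2 lower. ELF3, an epithelial ETS factor, had 0.132 CPM (0 to 0.290) in 8-cell embryos and 82.4 CPM (21.0 to 212) in expanded blastocysts, without overlap (log2 fold change 9.25 ± 0.97, edgeR adjusted p = 2.51e-09). TBX3, a T-box factor, rose from 0.414 CPM (0 to 6.30) to 131 CPM (13.7 to 184), a log2 fold change of 6.09 ± 0.88 (edgeR adjusted p = 1.55e-06), and GRHL2, a regulator of epithelial junction genes, from 3.13 CPM (0.414 to 39.4) to 86.7 CPM (59.0 to 203), a log2 fold change of 2.77 ± 0.74 (edgeR adjusted p = 0.00332). Neither overlapped between the stages.

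GATA3, a partner of GATA2 in trophectoderm, rose from 0.0912 CPM (0 to 10.9) to 34.2 CPM (4.57 to 54.9), a log2 fold change of 3.46 ± 1.16 (edgeR adjusted p = 0.0174), with overlapping ranges. HAND1, DLX3 and VGLL1, trophoblast regulators, had medians of 0 CPM at the 8-cell stage and of 6.42, 36.4 and 2.25 CPM in expanded blastocysts (log2 fold changes 7.34, 6.07 and 6.26, edgeR adjusted p = 0.000325, 0.000757 and 0.00108). Among 8-cell libraries VGLL1 was detected only in 020816_09, at 0.274 CPM, so the size of its fold rests on few reads. TFAP2C, which is present before the trophectoderm forms, had medians of 132 and 68.6 CPM and did not pass the test (-0.79 ± 0.38, edgeR adjusted p = 0.103); without 020816_09 it was called lower (-0.95, adjusted p = 0.0159). Of the 2 lower genes, TEAD3 changed sign without 020816_09, from -3.11 to 1.60 (edgeR adjusted p = 0.336), and had -2.92 (adjusted p = 0.0592) without expanded blastocyst 111215_03. The other, CREB3L1, had a median of 0 CPM in both stages.

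Besides KRT18, the keratins KRT19 and KRT7 were higher. KRT19 went from 0.0392 CPM (0 to 16.5) to 26.9 CPM (0 to 122), a log2 fold change of 4.15 ± 1.23 (edgeR adjusted p = 0.00723), and its only expanded blastocyst at 0 was 111715_05. KRT7 had no count in any 8-cell library and 2.58 CPM (0 to 14.5) in expanded blastocysts, at least 188-fold higher against a floor of 3 counts over the 8-cell group (edgeR adjusted p = 0.000198). Among hormone, steroid and fusion genes of later trophoblast 3 of 17 tested were higher (17.6%) and 2 lower (11.8%), against 12.9% and 23.7% of all genes, and 3 were higher and 1 lower without the 2 libraries that stood apart. PLAC8, a gene of invasive trophoblast, rose from 0 CPM (0 to 0.418) to 31.7 CPM (0 to 79.5), a log2 fold change of 8.84 ± 1.43 (edgeR adjusted p = 7.14e-06). One of the 2 lower calls, TRIML1, rested on 020816_09 and became 2.14 without it (edgeR adjusted p = 0.29).

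Pluripotency and epiblast genes were higher in 7 of 11 tested (63.6%, against 12.9% of all genes; median log2 fold change 2.75) and lower in 1. DPPA2 and DPPA4, paired chromatin factors of the early embryo, went from 2.51 CPM (0.182 to 34.0) to 262 CPM (61.7 to 580.5) and from 0.435 CPM (0 to 7.85) to 57.0 CPM (16.0 to 122) (log2 fold changes 5.43 ± 0.83 and 5.24 ± 0.87, edgeR adjusted p = 5.8e-06 and 1.09e-05), and neither overlapped. TFCP2L1 and KLF4, factors of the naive state, rose from medians of 0.0912 and 24.98 CPM to 41.0 and 119 CPM (5.43 ± 1.09 and 2.43 ± 0.47, edgeR adjusted p = 0.000163 and 9.17e-05). SUSD2, a surface marker of naive epiblast, rose from 0.266 CPM (0 to 3.62) to 20.5 CPM (1.46 to 51.2), a log2 fold change of 5.17 ± 1.12 (edgeR adjusted p = 0.000409). DNMT3B and DNMT3L, described above, are also on this list.

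The core factors POU5F1 and NANOG did not pass the test. POU5F1 had medians of 18.1 and 43.2 CPM (0.63 ± 0.61, edgeR adjusted p = 0.447). NANOG had medians of 2.43 and 20.1 CPM, with 47.4 CPM in 8-cell embryo 011516_02; its log2 fold change was 1.59 ± 0.87 (edgeR adjusted p = 0.147) with that library and 3.12 (edgeR adjusted p = 0.00658) without it. SALL4 was the 1 lower gene (-0.73 ± 0.26, edgeR adjusted p = 0.0256), and it was not called without 8-cell embryo 011516_02 or 112815_01 (-0.63 and -0.63, edgeR adjusted p = 0.0635 and 0.0668).

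The primitive endoderm list had 13 of 21 tested genes higher (61.9%, against 12.9% of all genes; median log2 fold change 2.36) and 2 lower. LRP2, the endocytic receptor megalin, had the largest rise of the named genes without overlap and with at least 1 CPM in every expanded blastocyst, from 1.63 CPM (0.0912 to 5.95) to 2837 CPM (144 to 4797), a log2 fold change of 10.38 ± 1.30 (edgeR adjusted p = 6.33e-07). APOA1, an apolipoprotein secreted by yolk sac endoderm, rose from 0.0828 CPM (0 to 0.547) to 28.3 CPM (0 to 128), a log2 fold change of 7.95 ± 1.57 (edgeR adjusted p = 0.000147).

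FGFR2, a receptor for the FGF signal that divides epiblast from endoderm, rose from a median of 6.19 to 80.4 CPM (3.0 ± 0.57, edgeR adjusted p = 7.31e-05). GATA6 was already present at the 8-cell stage, with 105 CPM (1.19 to 247), against 277 CPM (131 to 497) in expanded blastocysts (1.26 ± 0.45, edgeR adjusted p = 0.0229). PDGFRA, a surface marker of primitive endoderm, had medians of 208 and 326 CPM and did not pass the test (0.34 ± 0.32, edgeR adjusted p = 0.435); without 020816_09 it was called higher (0.82, adjusted p = 0.0237). GATA4 had medians of 0.331 and 21.1 CPM (2.36 ± 1.19, edgeR adjusted p = 0.115). FRZB, a secreted WNT antagonist on the same list, fell from 123 CPM (14.5 to 788) to 2.23 CPM (0.984 to 22.9), a log2 fold change of -5.96 ± 1.04 (edgeR adjusted p = 4.99e-05). The fall of CUBN, a partner of megalin, rested on 020816_09 (-3.67 with it, -1.54 without it, edgeR adjusted p = 0.00902 and 0.294).

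Basement membrane genes and integrins overlap with the endoderm list and had 12 of 25 tested genes higher (48.0%, against 12.9% of all genes; median log2 fold change 2.54) and 1 lower. A basement membrane is the sheet of laminin and collagen under an epithelium. LAMC1 and LAMB1, the laminin gamma and beta chains, rose from 11.4 CPM (4.06 to 66.8) to 706 CPM (126 to 952) and from 38.8 CPM (5.38 to 64.9) to 505 CPM (61.7 to 764) (log2 fold changes 4.80 ± 0.54 and 3.87 ± 0.50, edgeR adjusted p = 8.35e-09 and 1.48e-07). The linkers NID2 and AGRN rose from medians of 6.88 and 0 CPM to 476 and 28.2 CPM (4.12 ± 0.98 and 6.41 ± 1.23, edgeR adjusted p = 0.00151 and 8.48e-05). The laminin receptors ITGA6 (2.55 ± 0.41) and DAG1 (2.49 ± 0.48) were higher as well (edgeR adjusted p = 6.23e-06 and 0.000122), DAG1 without overlap. ITGB1, the beta chain that pairs with ITGA6 and other integrins, did not pass the test (-0.000749 ± 0.42, edgeR adjusted p = 1), and FN1, fibronectin, had medians of 135 and 11.4 CPM (-1.83 ± 1.01, edgeR adjusted p = 0.159).

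Junction, adhesion and polarity genes were higher in 19 of 35 tested (54.3%, against 12.9% of all genes) and lower in 2. Tight junctions seal the trophectoderm so that the cavity can fill. CLDN4, a claudin, had 0.0392 CPM (0 to 0.145) at the 8-cell stage and 34.1 CPM (0.837 to 139.9) in expanded blastocysts (log2 fold change 9.12 ± 1.55, edgeR adjusted p = 1.75e-05). OCLN, occludin, rose from 3.48 CPM (0.739 to 37.4) to 79.9 CPM (40.9 to 204), a log2 fold change of 3.18 ± 0.58 (edgeR adjusted p = 4.24e-05). CLDN4 and OCLN did not overlap between the stages.

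The desmosome genes DSC2 and DSP rose from medians of 4.31 and 44.5 CPM to 174 and 612 CPM (4.74 ± 0.62 and 2.70 ± 0.41, edgeR adjusted p = 2.11e-07 and 2.88e-06). CDH1, E-cadherin, rose from 33.8 CPM (5.80 to 496) to 657 CPM (245 to 859.8), a log2 fold change of 2.93 ± 0.51 (edgeR adjusted p = 2.41e-05); its highest 8-cell library was 020816_09, and without both libraries that stood apart the log2 fold change was 4.38 (edgeR adjusted p = 7.2e-11). CDH3, P-cadherin, went the other way, from 217 CPM (79.6 to 1986) to 46.6 CPM (21.4 to 139), a log2 fold change of -2.93 ± 0.47 (edgeR adjusted p = 6.06e-06), with -1.95 (adjusted p = 0.000236) without 020816_09. ESRP1, an epithelial splicing factor, was the other lower gene (-1.63 ± 0.27, edgeR adjusted p = 1.31e-05), with no overlap. EPCAM (2.59 ± 0.49) and the apical linker EZR (1.96 ± 0.37) rose (edgeR adjusted p = 6.7e-05 and 8.03e-05). The catenins CTNNB1 (-0.13 ± 0.42) and CTNNA1 (0.74 ± 0.32) and the polarity kinase PRKCI (-0.00105 ± 0.39) did not pass the test (edgeR adjusted p = 0.842, 0.0658 and 0.999). CTNNB1 was called higher in SoLo libraries (0.59, edgeR adjusted p = 0.0174). Without 020816_09 CTNNA1 was called higher (1.40, edgeR adjusted p = 8.03e-05).

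**Figure D3:**
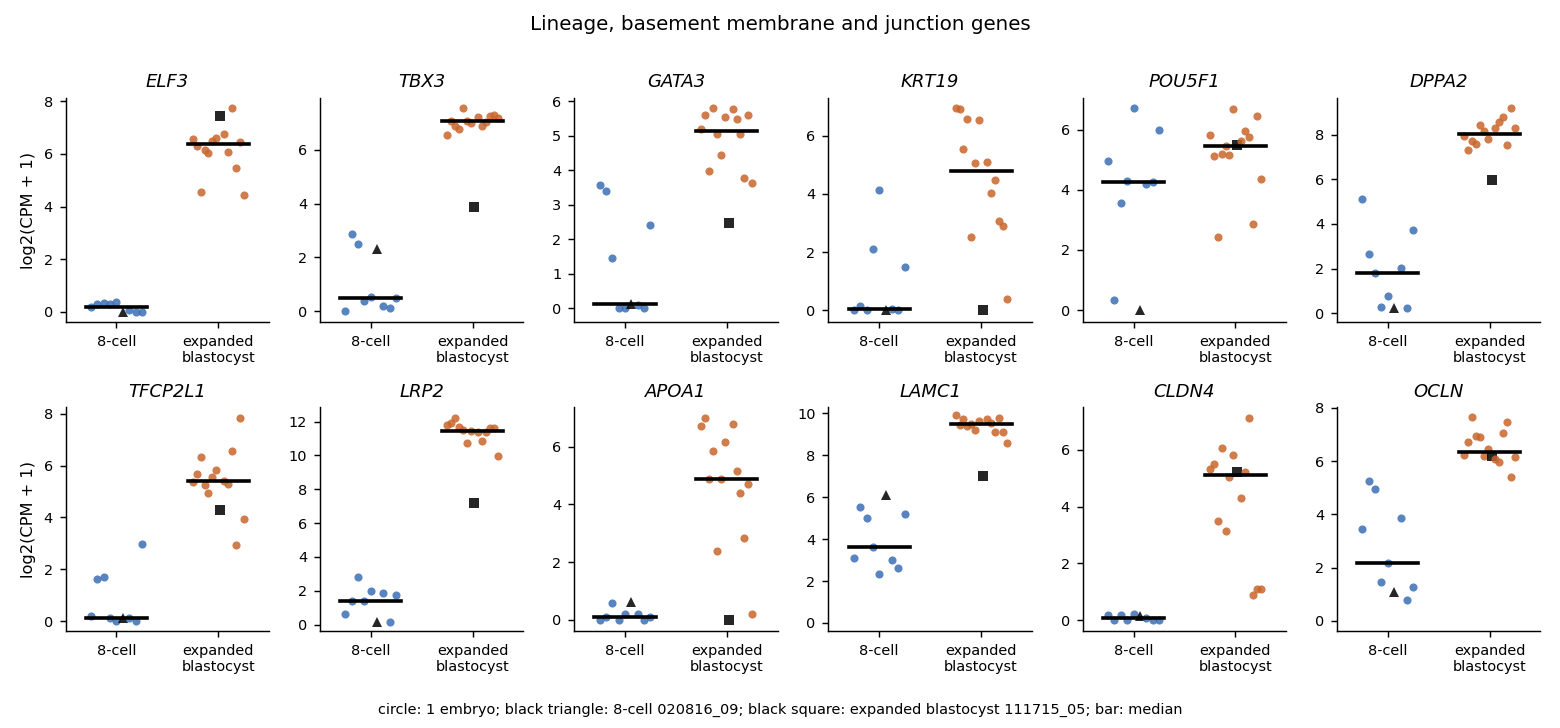
Level in each SPIA library (y axis, log2 of CPM + 1) of 12 genes of trophectoderm, epiblast, primitive endoderm, basement membrane and cell junctions in 9 8-cell embryos and 14 expanded blastocysts. Circles are embryos, bars are medians, the triangle is 8-cell embryo 020816_09 and the square is expanded blastocyst 111715_05. All but POU5F1 passed the test, with higher levels in expanded blastocysts.

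The Hippo pathway reads cell contact and polarity and keeps YAP1 out of the nucleus of inner cells. Of 20 tested genes 3 were higher (15.0%, near the 12.9% of all genes) and 1, TEAD3, lower (5.0%, against 23.7%). Without the 2 libraries that stood apart 4 were higher and 0 lower, and TEAD3 had a log2 fold change of 1.71. AMOTL2, an angiomotin that binds YAP1, rose from 0.227 CPM (0 to 2.15) to 87.5 CPM (43.4 to 342), without overlap (log2 fold change 7.69 ± 0.79, edgeR adjusted p = 2.51e-09). WWC1, an upstream activator, rose from a median of 0.368 to 54.0 CPM (2.69 ± 0.79, edgeR adjusted p = 0.0065). YAP1 had medians of 23.8 and 72.5 CPM and did not pass the test (-1.08 ± 0.54, edgeR adjusted p = 0.112), and had the opposite sign in SoLo libraries (1.20, adjusted p = 0.000876). Its SPIA log2 fold change ran from -1.25 to 0.72 on leaving out 1 library at a time. The kinase LATS2 was near the threshold (1.42 ± 0.58, edgeR adjusted p = 0.0484) and lost its call on leaving out any of 18 single libraries. In the SoLo libraries 12 genes of this list were higher and 1 lower, where 18.6% of all genes were higher and 19.8% lower.

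Of 16 tested genes for ion and water transport across the cavity wall, 3 were higher (18.8%, against 12.9% of all genes) and 6 lower (37.5%, against 23.7%). Without the 2 libraries that stood apart 4 were higher and 4 lower, where 13.5% of all genes were higher and 20.8% lower. The median log2 fold change of the list was -0.67, but 0.46 in DESeq2 and 1.12 in the SoLo libraries. AQP3, a water and glycerol channel, fell from 1378 CPM (25.2 to 1649) to 59.0 CPM (6.21 to 537), a log2 fold change of -3.57 ± 0.57 (edgeR adjusted p = 1.12e-05). The lowest 8-cell library of AQP3 was 020816_09, at 25.2 CPM, and the next lowest held 619 CPM. SLC4A2, an anion exchanger, rose from 1.88 CPM (0.245 to 23.7) to 46.8 CPM (23.0 to 117), a log2 fold change of 3.14 ± 0.63 (edgeR adjusted p = 0.00015), and SLC9A3, an apical sodium and proton exchanger, from 0.0912 CPM (0 to 1.66) to 6.76 CPM (0.162 to 44.0), a log2 fold change of 5.46 ± 1.46 (edgeR adjusted p = 0.00307). ATP1B1, a beta chain of the sodium pump, had medians of 65.1 and 169 CPM and did not pass the test (0.57 ± 0.51, edgeR adjusted p = 0.4). Without 020816_09 it was called higher (1.70, edgeR adjusted p = 0.00488). The lower call of AQP7, a water and glycerol channel, was lost without that library (-2.26, edgeR adjusted p = 0.153).

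**Figure D4:**
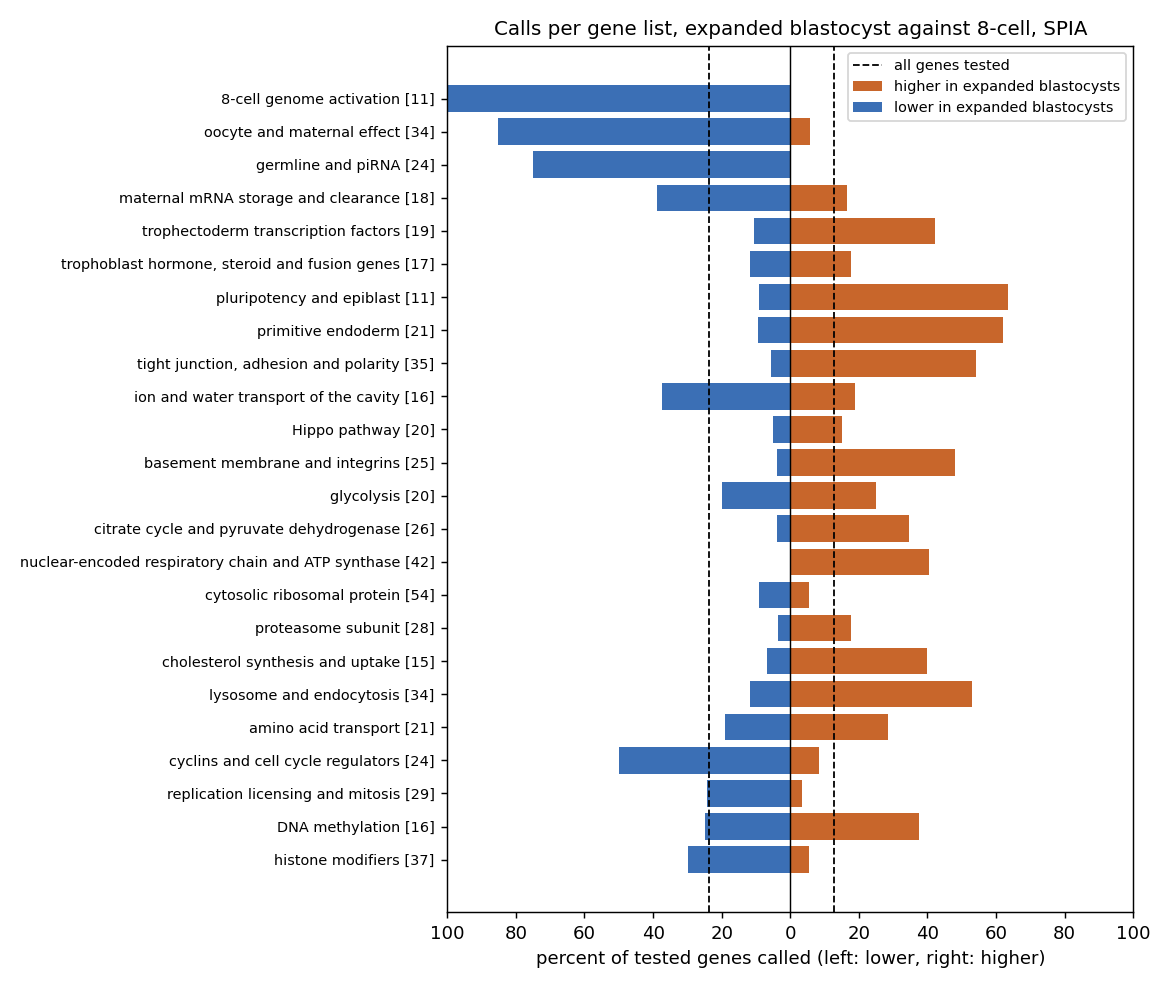
Share of the tested genes of 24 lists that were higher (bars to the right) or lower (bars to the left) in expanded blastocysts than in 8-cell embryos by edgeR's quasi-likelihood test at an adjusted p of 0.05 (x axis, percent of tested genes), with the number tested in brackets. Dashed lines give the share over all 15578 genes tested, 12.9% higher and 23.7% lower. The oocyte, genome activation and germline lists extend to the left and the epiblast, endoderm, junction, lysosome and respiratory chain lists to the right.

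Of 20 tested glycolysis genes 5 were higher (25%, against 12.9% of all genes), 4 were lower (20.0%, near the 23.7% of all genes) and 11 did not pass the test. SLC2A1, the glucose transporter GLUT1, rose from 91.3 CPM (0 to 182) to 772 CPM (75.4 to 1381), a log2 fold change of 3.34 ± 0.89 (edgeR adjusted p = 0.00388). SLC2A3, the transporter GLUT3, fell from 539 CPM (147 to 743) to 269 CPM (106 to 390.5), a log2 fold change of -0.90 ± 0.26 (edgeR adjusted p = 0.0054), with overlapping ranges. SLC16A1, the monocarboxylate carrier that takes up pyruvate and lactate, fell from 564 CPM (233 to 1175) to 79.3 CPM (37.7 to 175), without overlap (-2.85 ± 0.31, edgeR adjusted p = 5.11e-09). PFKL, the liver form of phosphofructokinase, rose from 0.132 CPM (0 to 1.13) to 59.8 CPM (34.3 to 106), also without overlap (7.52 ± 1.05, edgeR adjusted p = 7.5e-07). LDHB rose from a median of 67.0 to 313 CPM (2.18 ± 0.47, edgeR adjusted p = 0.000394), while LDHA, the other lactate dehydrogenase chain, had medians of 225 and 243 CPM (0.0664 ± 0.42, edgeR adjusted p = 0.919).

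HK2, the inducible hexokinase, rose from a median of 345 to 903 CPM (1.43 ± 0.39, edgeR adjusted p = 0.0034) and BPGM, which makes 2,3-bisphosphoglycerate, fell from 64.5 to 1.48 CPM (-4.64 ± 0.75, edgeR adjusted p = 6.64e-06). HK2 was at 1.64 CPM in 020816_09, and the other 8-cell libraries held 269 CPM or more. PGK1, which makes ATP in glycolysis, rose from 6.15 CPM (0.182 to 20.8) to 47.7 CPM (20.6 to 101), a log2 fold change of 2.70 ± 0.71 (edgeR adjusted p = 0.00272).

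Mitochondrial fuel genes that passed the test were higher with 1 exception. Pyruvate dehydrogenase feeds pyruvate into the citrate cycle, whose electrons the respiratory chain uses to make ATP. Of 26 tested citrate cycle and pyruvate dehydrogenase genes 9 were higher (34.6%, against 12.9% of all genes; median log2 fold change 1.08) and 1 lower. PDHB, a pyruvate dehydrogenase subunit, rose from 47.9 CPM (0.912 to 159.6) to 372 CPM (197 to 489), a log2 fold change of 2.62 ± 0.43 (edgeR adjusted p = 8.83e-06), and DLD, the subunit shared with other dehydrogenases, from 40.3 CPM (28.1 to 88.9) to 234 CPM (144 to 396), a log2 fold change of 2.23 ± 0.39 (edgeR adjusted p = 2.45e-05). Neither overlapped. PDHA1 (1.75 ± 0.45), DLAT (1.77 ± 0.40), IDH3A (2.87 ± 0.54) and MDH2 (2.11 ± 0.46) were higher too (edgeR adjusted p = 0.00249, 0.000651, 6.09e-05 and 0.000422). DLST, a subunit of 2-oxoglutarate dehydrogenase, was lower (-1.71 ± 0.42, edgeR adjusted p = 0.0015); in SoLo libraries its change was -0.24 (edgeR adjusted p = 0.439).

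Of 42 tested nuclear genes of the respiratory chain and ATP synthase, 17 were higher and none lower (40.5% against 12.9% of all genes; median log2 fold change 1.13), and 32 were higher and none lower in the SoLo libraries, where 18.6% of all genes were higher and 19.8% lower. ATP5F1A, the alpha subunit of ATP synthase, rose from 73.5 CPM (25.4 to 109) to 384 CPM (174 to 602), without overlap (2.45 ± 0.34, edgeR adjusted p = 5.62e-07). ATP5MC3, a rotor subunit, rose from a median of 12.6 to 149 CPM (3.11 ± 0.55), COX5A of complex IV from 40.3 to 140.0 CPM (1.99 ± 0.38) and NDUFB8 of complex I from 1.88 to 24.6 CPM (3.47 ± 0.79), with edgeR adjusted p of 3.17e-05, 8.99e-05 and 0.000675. CPM values are not divided by transcript length, so levels are not ranked between these genes.

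**Figure D5:**
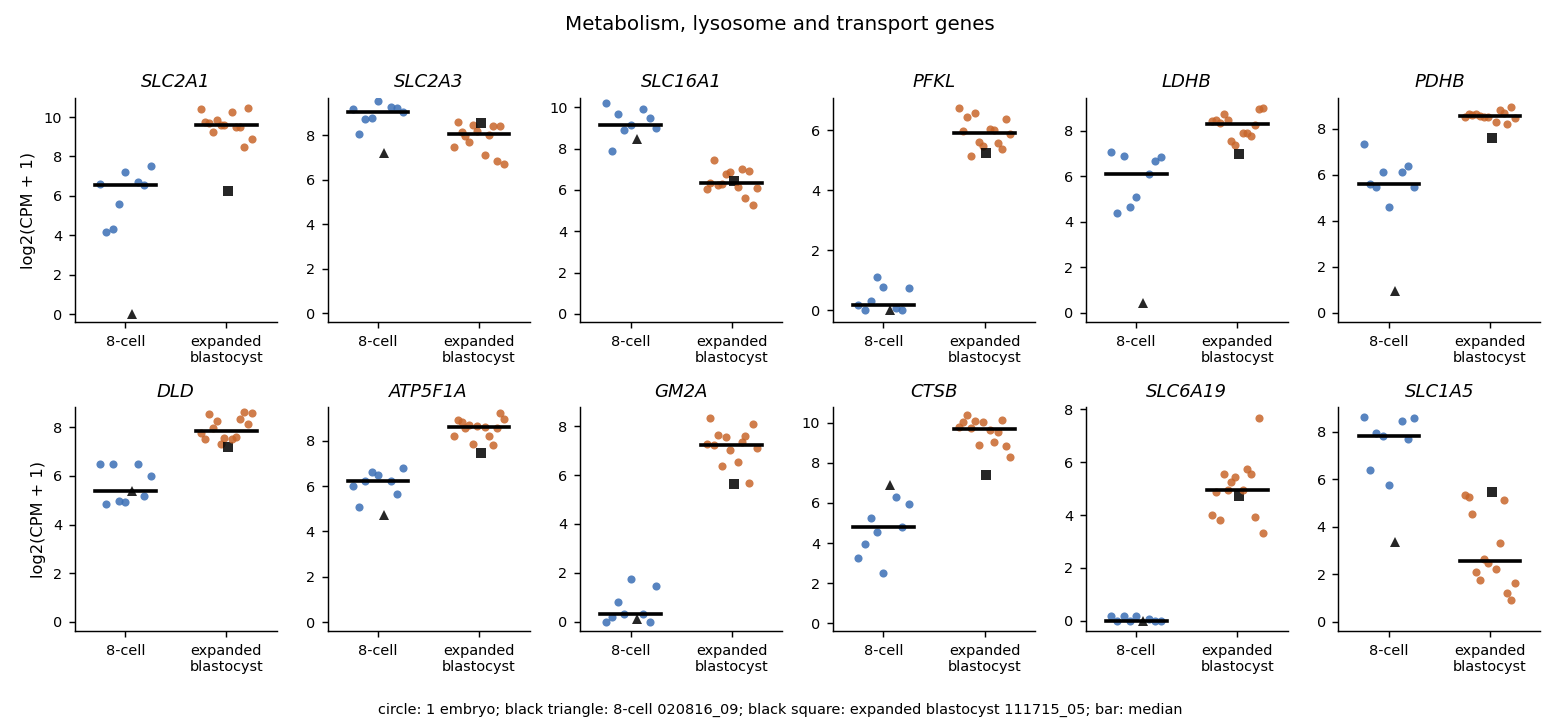
Level in each SPIA library (y axis, log2 of CPM + 1) of 12 genes of glucose and monocarboxylate transport, glycolysis, pyruvate oxidation, ATP synthesis, lysosomes and amino acid transport in 9 8-cell embryos and 14 expanded blastocysts. Circles are embryos, bars are medians, the triangle is 8-cell embryo 020816_09 and the square is expanded blastocyst 111715_05. SLC2A3, SLC16A1 and SLC1A5 lie lower and the other 9 genes higher in expanded blastocysts.

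Lysosome and endocytosis genes were higher in 18 of 34 tested (52.9%, against 12.9% of all genes; median log2 fold change 1.56) and lower in 4. GM2A, an activator of ganglioside breakdown, rose from 0.227 CPM (0 to 2.32) to 150.3 CPM (48.0 to 325), a log2 fold change of 8.03 ± 0.89 (edgeR adjusted p = 8.16e-09). The proteases CTSB and CTSL rose from medians of 27.3 and 2.38 CPM to 814 and 164 CPM (4.23 ± 0.57 and 4.79 ± 0.69, edgeR adjusted p = 6.01e-07 and 1.53e-06), and NPC2, which carries cholesterol out of lysosomes, from 1.93 to 81.5 CPM (4.54 ± 0.67, edgeR adjusted p = 1.8e-06). None of these 4 genes overlapped between the stages. MCOLN1, a lysosomal cation channel, fell from 24.9 CPM (10.8 to 61.7) to 3.24 CPM (0 to 9.80), a log2 fold change of -2.83 ± 0.72 (edgeR adjusted p = 0.00215). Of 15 tested genes of cholesterol synthesis and uptake, 6 were higher (40.0%, against 12.9% of all genes) and 1 lower.

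Of 21 tested amino acid transporters 6 were higher (28.6%, against 12.9% of all genes) and 4 lower (19%, near the 23.7% of all genes). SLC6A19, an apical carrier of neutral amino acids, had 0 CPM (0 to 0.145) in 8-cell embryos and 30.0 CPM (8.94 to 205) in expanded blastocysts (log2 fold change 9.64 ± 1.36, edgeR adjusted p = 7.59e-07). SLC7A3, a cationic amino acid carrier, rose from 0.274 CPM (0 to 4.97) to 69.7 CPM (21.0 to 104), a log2 fold change of 6.16 ± 1.23 (edgeR adjusted p = 0.000194), while its relative SLC7A2 fell from a median of 92.9 to 24.3 CPM (-1.84 ± 0.50, edgeR adjusted p = 0.00349). SLC1A5, a glutamine carrier, fell from 228 CPM (9.21 to 397) to 4.92 CPM (0.903 to 43.4), a log2 fold change of -3.91 ± 0.77 (edgeR adjusted p = 0.000171). SLC3A2, the common heavy chain of several carriers, fell from a median of 61.8 to 21.5 CPM (-1.48 ± 0.43, edgeR adjusted p = 0.00653).

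Cell cycle regulators were lower in 12 of 24 tested (50%, against 23.7% of all genes) and higher in 2; without the 2 libraries that stood apart 9 were lower and 2 higher. CCND1, cyclin D1, fell from 20.2 CPM (4.80 to 524) to 0.198 CPM (0 to 2.48), a log2 fold change of -6.93 ± 1.16 (edgeR adjusted p = 1.54e-05), and CCNB3, a cyclin of meiosis, from 124 CPM (30.9 to 677) to 9.22 CPM (2.26 to 41.1), a log2 fold change of -3.57 ± 0.52 (edgeR adjusted p = 1.27e-06). CDC25A, a phosphatase that drives entry into division, fell from a median of 136 to 62.7 CPM (-1.45 ± 0.39) and CCNE1, cyclin E, from 143 to 62.0 CPM (-1.46 ± 0.38; edgeR adjusted p = 0.00308 and 0.00233). WEE2, the egg's own form of an inhibitor of mitotic kinase, fell (-5.11 ± 0.94, edgeR adjusted p = 0.000106, and -3.34 without 020816_09), while its somatic counterpart WEE1 rose from a median of 2.68 to 22.7 CPM (2.32 ± 0.76, edgeR adjusted p = 0.0141). CDK6, a partner of D-type cyclins, was the other higher gene (3.38 ± 1.01, edgeR adjusted p = 0.0072).

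Of 29 replication licensing and mitosis genes 7 were lower, a share of 24.1% that is near the 23.7% of all genes, and 1 was higher. AURKA, a spindle kinase, fell from a median of 194 to 52.7 CPM (-2.39 ± 0.50, edgeR adjusted p = 0.000273), CDC6, a licensing factor, from 285 to 102 CPM (-1.27 ± 0.30, edgeR adjusted p = 0.0011) and PCNA, the replication clamp, from 201 to 79.6 CPM (-1.44 ± 0.38, edgeR adjusted p = 0.0031). PLK4, which starts centriole duplication, rose from 2.46 to 50.6 CPM (2.0 ± 0.63, edgeR adjusted p = 0.0109). TOP2A, a topoisomerase of dividing cells (0.22 ± 0.27), and the helicase subunit MCM2 (-0.77 ± 0.41) did not pass the test (edgeR adjusted p = 0.557 and 0.142).

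Of 37 tested histone modifiers 11 were lower (29.7%, near the 23.7% of all genes) and 2 higher (5.41%, against 12.9%). KDM5A and KDM5B, which remove methyl groups from lysine 4 of histone H3, fell: KDM5A from 268 CPM (196 to 447) to 56.0 CPM (20.6 to 85.6), without overlap (log2 fold change -2.47 ± 0.32, edgeR adjusted p = 2.15e-07), and KDM5B from a median of 851 to 299 CPM (-1.29 ± 0.33, edgeR adjusted p = 0.00192). The acetyltransferases EP300 (-1.32 ± 0.23) and KAT2B (-3.58 ± 0.60) were lower (edgeR adjusted p = 2.08e-05 and 1.37e-05). HDAC7, a class II deacetylase, rose from 0.123 CPM (0 to 1.19) to 10.4 CPM (1.61 to 75.4), a log2 fold change of 5.94 ± 1.09 (edgeR adjusted p = 4.63e-05), and SUZ12, a Polycomb subunit, from a median of 170.0 to 425 CPM (1.21 ± 0.31, edgeR adjusted p = 0.00191). EZH2, the catalytic partner of SUZ12, did not pass the test (-0.97 ± 0.45, edgeR adjusted p = 0.0845) but was called lower without 020816_09 (-1.14, adjusted p = 0.0179).

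HSP90B1, the endoplasmic reticulum form of HSP90, rose from 266 CPM (105 to 786) to 2478 CPM (967 to 3997), a log2 fold change of 3.05 ± 0.44 (edgeR adjusted p = 1.8e-06), whereas HSPA5, the other main chaperone there, had medians of 515 and 449 CPM (-0.0350 ± 0.34, edgeR adjusted p = 0.949). HSPD1, the mitochondrial chaperonin, rose from 40.4 CPM (30.4 to 198) to 582 CPM (263 to 1206), a log2 fold change of 3.45 ± 0.40 (edgeR adjusted p = 1.62e-08). ASNS, asparagine synthetase, rose from a median of 2.13 to 41.8 CPM (4.70 ± 0.66, edgeR adjusted p = 6.53e-07). PPP1R15A, which ends the stress block on translation, fell from 59.1 CPM (25.1 to 276) to 1.54 CPM (0 to 10.9), a log2 fold change of -4.75 ± 0.67 (edgeR adjusted p = 8.56e-07), and the HSP70 partner DNAJB1 from 242 CPM (82.2 to 593) to 38.9 CPM (20.6 to 67.5), a log2 fold change of -2.85 ± 0.42 (edgeR adjusted p = 2.03e-06). None of HSP90B1, HSPD1, ASNS, PPP1R15A and DNAJB1 overlapped between the stages. In the lists, 4 of 23 unfolded protein and stress genes were higher (17.4%) and 5 lower (21.7%), shares near the 12.9% and 23.7% of all genes, and 2 of 10 heat shock genes were higher and 1 lower.

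Most cytosolic ribosomal protein genes did not pass the test: 3 of 54 were higher (5.56%) and 5 lower (9.26%), both below the shares of all genes (12.9% and 23.7%). Without the 2 libraries that stood apart 2 were higher and 3 lower. With DESeq2 size factors 5 were higher and 2 lower, and in DESeq2 11 and 3. In the SoLo libraries 22 were higher and 2 lower, where 18.6% of all genes were higher and 19.8% lower. RPS12, a protein of the small subunit, rose from a median of 49.95 to 91.9 CPM (0.88 ± 0.31, edgeR adjusted p = 0.0217). Of 28 proteasome subunits 5 were higher (17.9%, against 12.9% of all genes) and 1, PSMC4, lower (3.57%, against 23.7%), and 4 were higher and 5 lower without the 2 libraries that stood apart.

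The 12 largest rises among named genes whose ranges did not overlap, with at least 1 CPM in every expanded blastocyst, were LRP2, NGEF, SLCO2B1, S100P, SLC6A19, TSPAN15, FYB1, ELF3, PROM1, ACOX2, SLC15A2 and MAPKAPK3. All 12 were also called higher in the SoLo libraries, where 18.6% of all genes were higher. Those libraries were made from some of the same embryos, so they are not a separate look at these genes. S100P, a calcium-binding protein of placenta, had 0.114 CPM (0 to 0.306) in 8-cell embryos and 107 CPM (36.6 to 204) in expanded blastocysts (log2 fold change 9.70 ± 1.04, edgeR adjusted p = 4.45e-09). PROM1, the membrane protein prominin that marks apical protrusions, rose from 0.196 CPM (0 to 0.735) to 114 CPM (16.0 to 255), a log2 fold change of 8.90 ± 1.24 (edgeR adjusted p = 1.39e-06). SLC15A2, a peptide carrier, rose from 0.0828 CPM (0 to 1.96) to 99.4 CPM (20.6 to 235), a log2 fold change of 8.34 ± 1.11 (edgeR adjusted p = 3.78e-07). FYB1, an adaptor known from blood cells, rose from 0.0392 CPM (0 to 0.306) to 44.7 CPM (4.57 to 156), a log2 fold change of 9.27 ± 1.14 (edgeR adjusted p = 6.71e-08).

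The remaining members of that group were TSPAN15, a tetraspanin, with a median of 48.2 CPM in expanded blastocysts, and MAPKAPK3, a stress kinase, with 19.2 CPM. Their 8-cell medians were 0 and 0.0380 CPM. NGEF, SLCO2B1 and ACOX2 had only 1 to 3 counts over the whole 8-cell group, so their folds are given as ratios of summed counts with counting intervals. NGEF, a guanine nucleotide exchange factor of neurons, was 1924 (95% interval 658 to 9336) times as high in expanded blastocysts. SLCO2B1, an organic anion carrier of placenta and liver, was 2146 (95% interval 734 to 10413) times as high. ACOX2, a peroxisomal oxidase of bile acid intermediates, was 697 (95% interval 238 to 3385) times as high. These intervals cover counting error only. In 111715_05, with 0.601 M counts, a level of a few CPM rests on few reads. The lowest expanded blastocyst held 2.29 CPM of SLCO2B1 and of TSPAN15, and 4.57 CPM of FYB1.

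The 12 largest falls by the same rule, with at least 1 CPM in every 8-cell library, were LINGO2, SLFN13, RIT2, CDC20B, ZSCAN5A, CCND1, C1QTNF6, IGHE, TOX2, CCNA1, DNMT1 and TSHZ2. All 12 were called lower in the SoLo libraries, made from some of the same embryos, where 19.8% of all genes were lower. ZSCAN5A, a SCAN domain zinc finger gene, fell from 190.4 CPM (57.5 to 261) to 0.607 CPM (0.0992 to 8.35), a log2 fold change of -6.98 ± 0.79 (edgeR adjusted p = 8.35e-09). LINGO2, a leucine-rich repeat membrane protein best known from neurons, fell from 66.9 CPM (4.90 to 202) to 0.198 CPM (0 to 0.650), a log2 fold change of -8.09 ± 0.92 (edgeR adjusted p = 1.01e-08). SLFN13, a Schlafen ribonuclease, fell from 31.1 CPM (3.84 to 218) to 0.0576 CPM (0 to 1.81), a log2 fold change of -7.57 ± 1.19 (edgeR adjusted p = 5.11e-06). RIT2, a small GTPase, and TSHZ2, a zinc finger homeobox gene, fell from medians of 25.5 and 33.9 CPM to 0.158 and 0.498 CPM. The identifier carrying the name IGHE had 213 CPM (34.3 to 1992) and 2.86 CPM (1.15 to 29.7), and C1QTNF6, a secreted C1q-like protein, 190.5 CPM (60.1 to 2703) and 2.16 CPM (0.450 to 54.9). TOX2 had a log2 fold change of -6.58 with all libraries and of -4.13 without 020816_09, which held 2296 CPM.

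Among the 8 risen genes with the highest mean level, LRP2, HSP90B1, AHNAK and NLRP7 kept their calls without 111715_05; AHNAK, a large scaffold protein, went from 54.5 CPM (4.78 to 479) to 2325 CPM (171 to 3307), a log2 fold change of 4.14 ± 0.75 (edgeR adjusted p = 8.6e-05). The other 4, MBD4, AKAP12, PTCD1 and IQCB1, had their highest level in 111715_05, which held 100646, 76444, 57996 and 28880.3 CPM of them. Without that library their log2 fold changes were -0.30, 1.36, -0.15 and 1.95 in place of 7.22, 5.27, 6.27 and 6.0 (edgeR adjusted p = 0.628, 0.188, 0.806 and 0.0275).

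The 8 fallen genes with the highest mean level were DNMT1, UBE2D3, PROSER1, OOSP4A, MAX, OTX2, PTTG1 and H2AZ1. MAX, the common dimer partner of a family of growth regulators, fell from 2475 CPM (1311 to 4112) to 357 CPM (228 to 676), without overlap (log2 fold change -2.67 ± 0.26, edgeR adjusted p = 8.05e-10). PTTG1, securin, which guards sister chromatid separation, fell from 1084 CPM (701 to 6347) to 169.8 CPM (95.3 to 533), a log2 fold change of -3.07 ± 0.39 (edgeR adjusted p = 1.45e-07). H2AZ1, a histone variant, fell from a median of 1516 to 186 CPM (-2.83 ± 0.35, edgeR adjusted p = 8.02e-08), and OOSP4A, an oocyte-secreted protein, from 1059 to 50.3 CPM (-5.24 ± 0.92, edgeR adjusted p = 6.01e-05). UBE2D3, a ubiquitin-conjugating enzyme, and PROSER1 kept their calls but shrank without 020816_09, from -3.04 and -3.48 to -1.95 and -1.83 (edgeR adjusted p = 1.9e-06 and 0.00359).

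Markers of cells that could have been carried along were measured in the same libraries. The summed level of 20 cumulus and granulosa cell markers was 109.5 to 2408 CPM (median 479.8) in 8-cell embryos and 285.5 to 884 CPM (median 432) in expanded blastocysts; 2 members were at 0 in every 8-cell library and none in every expanded blastocyst. VCAN, a matrix protein of expanding cumulus, had 21.4 CPM (0.745 to 1544) and 3.06 CPM (0.446 to 18.2), a log2 fold change of -5.98 ± 0.97 (edgeR adjusted p = 1.67e-05), and its 3 highest libraries were the 8-cell embryos 020816_06, 020816_07 and 112815_02. Of the 18 tested markers of this list 7 were lower (38.9%, against 23.7% of all genes) and 4 higher (22.2%, against 12.9%). The higher ones were COL1A2, GJA1, HSD17B1 and AMHR2, with log2 fold changes of 8.93, 2.71, 4.31 and 3.23. Without those 3 embryos 16 of the markers were tested, and 4 were lower and 4 higher. The genes called between the stages went from 5708 to 5283, with 3224 lower among 15088 tested. Summed sperm markers (15 genes) were 65.2 to 825 CPM at the 8-cell stage and 8.51 to 259.5 CPM in expanded blastocysts, with 3 and 2 members at 0 in all libraries of the stage. Blood and immune markers (16 genes) summed to 17.8 to 637 and 6.19 to 33 CPM, with 7 and 3 members at 0. Endothelial and stromal markers (14 genes) summed to 0.580 to 503 and 73.1 to 254 CPM, with 3 and 2 at 0. The highest sums of sperm, of blood and of endothelial and stromal markers were all in 020816_09. Its cumulus and granulosa sum was 1068 CPM, above the 625 CPM of 020816_06. Yet 020816_09 was not among the 3 embryos left out above, so the set without those 3 is not free of cumulus markers. PTPRC, the defining marker of white blood cells, had no count in any of the 23 libraries. The part of such cells in the results was not tested.

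Embryos that entered SPIA only give a partly separate look at the same contrast. Both libraries that stood apart, 8-cell 020816_09 and expanded blastocyst 111715_05, are among them and weigh more in this smaller set. In the 5 8-cell embryos and 8 expanded blastocysts without a SoLo library, 2497 of the 13213 genes tested in both kits were called. In the SoLo libraries of other embryos 5203 of the same 13213 genes were called, and 1580 were called in both with the same sign. These were 63.3% of the SPIA calls and 30.4% of the SoLo calls. Over all 14196 genes tested in the SoLo libraries, 18.6% were called higher and 19.8% lower. Of the 2497 genes, 2326 (93.2%) had the same sign in the SoLo libraries. The share with the same sign was not computed over all 13213 genes. Some of these embryos share a title code with embryos of the other set.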

How the data were processed

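The authors deposited 1 table of whole-number read counts per gene identifier for 26309 identifiers, of which 15078 carried a gene name. HISAT2 and DESeq2 are named in the submitters' processing notes, without versions; which program counted the reads, and against which annotation and build, is not given in the sources used here. Of 52 columns 49 were matched to samples by title and 3 were not used. The counts were tested as deposited with edgeR 4.0.16 (R 4.3.3): filterByExpr, TMM scaling, a robust quasi-likelihood fit of the 4 SPIA groups (8-cell, morula, expanded blastocyst and delayed blastocyst, which share 1 estimate of the spread) and the contrast of expanded blastocyst with 8-cell. P-values were adjusted by Benjamini and Hochberg over 15578 genes, with a threshold of 0.05. Log2 fold changes are given ± their standard error, computed as the fold change divided by the square root of the F statistic. CPM are counts per M of TMM-scaled library size. Measures per library were compared by exact two-sided permutation tests of the stage labels (Python 3.11.15, scipy 1.17.1), with each embryo taken as independent. Gene intervals and floors cover counting error only. The fitting script was tested on simulated counts.

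Alternatives were DESeq2 1.42.0, DESeq2 size factors, limma-voom 3.58.1 without and with the title code as a random block, only the compared groups, other filters, thinning, SoLo libraries and the removal of libraries, title codes or the 12 abundant identifiers without a name. The joint removal of both libraries that stood apart and the second thinning were chosen after seeing the data. Named genes were the 4 markers, the 12 largest rises and falls without overlap and with at least 1 CPM in every library of the higher stage, the 8 risen and 8 fallen genes of highest mean CPM with a log2 change of at least 2, up to 4 called genes per direction in each of 35 gene lists by adjusted p, and list members with a textbook role. The lists hold 771 distinct genes with an identifier; 16 names on more than 1 identifier were left out. The marker genes, the lists and the named members were chosen with earlier results of these data known. Genes that passed the filter through 1 stage alone are included, so counts over a list describe it and test nothing. Some results are not reported here.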

Additional observations from a re-analysis of the deposited data

Results flagged for a closer look

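The 9 8-cell libraries were searched, gene by gene, for a lowest or highest library that lay far from the rest on the log2(CPM + 1) scale (Dixon's test at the 95% level). Of 218 groups tested, which are the named genes and 3 measures per library, 55 held such a library. Chance flags about 1 in 20 groups. The groups of 14 expanded blastocysts are too large for this test and were not searched.

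Embryo 020816_09 accounted for 41 of the 55 single genes. It held the lowest level of AQP3 (25.2 CPM), CCNA1 (14.8 CPM), CNOT1 (149 CPM), EPCAM (0.638 CPM), EZH2 (1.09 CPM), EZR (7.48 CPM), HK2 (1.64 CPM), HSPA5 (49.9 CPM) and KAT2B (0.365 CPM). Its level was also the lowest, apart from the other 8 libraries, in KDM5B (7.20 CPM), KLF17 (0.821 CPM), LDHA (1.55 CPM), LDHB (0.365 CPM), MOV10L1 (0.182 CPM), PDHA1 (1.19 CPM), PDHB (0.912 CPM), PRKCI (2.74 CPM) and PSMC4 (0.638 CPM). The same held for PTCD1 (1.92 CPM), SALL4 (109.9 CPM), SLC2A1 (0 CPM), SLC3A2 (3.01 CPM), SLC7A2 (0.274 CPM), TFAP2C (2.92 CPM), TPRX1 (0.182 CPM) and ZIM3 (29.0 CPM). It held the highest level of ACVR2A (371 CPM), AQP7 (88.5 CPM), C1QTNF6 (2703 CPM), CDH3 (1986 CPM), CTNNA1 (731 CPM), PDGFRA (919 CPM), PROSER1 (22674 CPM), PTTG1 (6347 CPM) and SYCP2 (1216 CPM). Its level was also the highest, apart from the other 8 libraries, in TEAD3 (191 CPM), TOX2 (2296 CPM), TRIML1 (254 CPM), UBE2D3 (33099 CPM), VGLL1 (0.274 CPM) and ZP4 (1145 CPM).

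Embryo 011516_03 was the highest for AGRN (2.51 CPM), DLX3 (3.61 CPM), PLAC8 (0.418 CPM) and RSPO3 (0.266 CPM). Embryo 011516_02 was the highest for ACOX2 (0.265 CPM), HSPD1 (198 CPM) and NGEF (0.265 CPM). Embryo 020816_06 was the lowest for NLRP5 (5.27 CPM). Embryo 020816_06 was the highest for FYB1 (0.306 CPM) and SUSD2 (3.62 CPM). Embryo 020816_07 was the highest for HAND1 (0.378 CPM) and SLC15A2 (1.96 CPM). Embryo 112815_01 was the highest for SLC9A3 (1.66 CPM). Embryo 112815_02 was the highest for KRT18 (8.62 CPM).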

How the results depend on the processing

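The direction of most named genes held, while the number of calls depended on the fit. Leaving out 1 library at a time gave 5293 to 5660 genes called, 1873 to 2086 higher and 3207 to 3645 lower. limma-voom called 3602 genes higher and 1862 lower, and with the title code as a random block 3986 and 2036. With only the compared groups fitted, 3704 genes were called, 2348 of them lower. With no filter on low counts 3034 were higher. Thinning every library to 600966 counts left 2157 calls (1029 higher, 1128 lower), and thinning to 4846910 counts without expanded blastocyst 111715_05 left 3281, of which 1883 were lower; both thinned fits also used only the compared groups. In embryos without a SoLo library 2868 genes were called (1113 higher, 1755 lower), and without title code 020816, which removes 5 of the 9 8-cell embryos, 3224 (1152 higher, 2072 lower). The SoLo libraries gave 2643 genes higher and 2814 lower, DESeq2 2291 and 2813.

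Direction and side of the threshold were kept by 178 of 212 named genes in the SoLo libraries, 204 of 214 in DESeq2, 185 of 214 in limma-voom, 171 of 214 in embryos without a SoLo library, 181 of 214 without title code 020816, 195 of 214 without 8-cell embryo 020816_09 and 209 of 214 without expanded blastocyst 111715_05. The genes below changed sign, and the values are log2 fold changes. MBD4 (7.22 in all libraries) had -0.18 in the SoLo libraries, -0.22 in DESeq2, -0.0846 in limma-voom, -0.10 after thinning to a common total, -0.39 without title code 111715 and -0.0149 without both libraries that stood apart, and -0.30 to 7.50 on leaving out 1 library at a time. PTCD1 (6.27 in all libraries) had -0.37 in the SoLo libraries, -0.0159 in DESeq2, -0.0672 after thinning to a common total, -0.14 without title code 111715 and -0.31 without both libraries that stood apart, and -0.15 to 6.47 on leaving out 1 library at a time. IQCB1 (6.0 in all libraries) had -0.53 in the SoLo libraries. CNOT7 (-1.31 in all libraries) had 0.52 in the SoLo libraries. TEAD3 (-3.11 in all libraries) had 2.55 in the SoLo libraries, 1.77 in DESeq2, 1.29 in limma-voom, 1.26 in limma-voom with the title code as a random block, 1.58 without title code 020816 and 1.71 without both libraries that stood apart, and -3.46 to 1.60 on leaving out 1 library at a time. TRIML1 (-6.25 in all libraries) had 2.24 in DESeq2, 0.43 in limma-voom, 0.37 in limma-voom with the title code as a random block, 1.45 without title code 020816 and 1.43 without both libraries that stood apart, and -6.85 to 2.14 on leaving out 1 library at a time. SALL4 (-0.73 in all libraries) had 0.16 in the SoLo libraries. CTNNB1 (-0.13 in all libraries) had 0.59 in the SoLo libraries, and -0.27 to 0.22 on leaving out 1 library at a time. YAP1 (-1.08 in all libraries) had 1.20 in the SoLo libraries, and -1.25 to 0.72 on leaving out 1 library at a time. ACVR2A (-3.33 in all libraries) had 0.0706 in DESeq2. Beyond the library that each setting leaves out, the cause was not tested.

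No paired analysis was possible because the stages share no title code or replicate number. Depth limits genes of low level, most of all in expanded blastocyst 111715_05 with 0.601 M counts.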

Other observations

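Of 32 tested growth factor receptors and ligands 7 were higher (21.9%, against 12.9% of all genes) and 12 lower (37.5%, against 23.7%) in expanded blastocysts, and 8 were higher and 8 lower without the 2 libraries that stood apart. IGF2R, which clears IGF2, rose from 30.9 CPM (1.32 to 67.4) to 226 CPM (45.7 to 370.5), a log2 fold change of 2.89 ± 0.62 (edgeR adjusted p = 0.000364), while IGF1R, the signalling receptor, fell from 59.2 CPM (2.70 to 173) to 10.1 CPM (0 to 41.1), a log2 fold change of -2.45 ± 0.64 (edgeR adjusted p = 0.00238). PDGFA, a ligand of PDGFRA, rose from 5.47 CPM (0.0380 to 17.5) to 52.6 CPM (24.9 to 182), without overlap (2.98 ± 0.81, edgeR adjusted p = 0.00373). BMP4 fell from a median of 27.9 to 1.60 CPM (-4.11 ± 0.90, edgeR adjusted p = 0.00046), and in SoLo libraries it had -1.94 (adjusted p = 0.124). RSPO3, a WNT potentiator, had a median of 0 CPM at the 8-cell stage and 5.26 CPM in expanded blastocysts (6.67 ± 1.47, edgeR adjusted p = 0.000477). RXFP1, the relaxin receptor, had 0.554 CPM (0 to 13.6) and 0 CPM (0 to 0.678), a log2 fold change of -4.89 ± 1.41 (edgeR adjusted p = 0.00568), which is a low level in both stages. The lower calls of ACVR1B and ACVR2A, activin receptors, rested on 020816_09 and became -0.61 and -0.0195 without it (edgeR adjusted p = 0.673 and 0.989).

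Among 17 tested genes that are imprinted in other mammals, 2 were higher (11.8%) and 4 lower (23.5%), shares near the 12.9% and 23.7% of all genes. GNAS, a G protein alpha subunit, rose from 94.5 CPM (50.1 to 161) to 330.1 CPM (86.9 to 628), a log2 fold change of 1.81 ± 0.32 (edgeR adjusted p = 3.24e-05), and GRB10, an adaptor that restrains insulin signalling, rose from 20.8 CPM (11.7 to 66.4) to 96.7 CPM (39.5 to 446), a log2 fold change of 2.05 ± 0.40 (edgeR adjusted p = 0.00011). The 4 lower genes were PLAGL1 (-5.75), DLK1 (-5.68), PHLDA2 (-4.85) and IGF2 (-2.75), with edgeR adjusted p of 0.00024, 0.00108, 0.0028 and 0.0464. IGF2 lost its call on leaving out any of 16 single libraries. Without the 2 libraries that stood apart 16 genes of the list were tested, and 3 were higher and 3 lower. MEST had medians of 14.4 and 20.4 CPM and did not pass the test (0.40 ± 0.59, edgeR adjusted p = 0.629). Of 18 tested genes of cell death and the damage response 1 was higher (5.56%) and 4 lower (22.2%, near the 23.7% of all genes). BCL2L10, an anti-death gene stored in the egg, fell from a median of 64.9 to 4.22 CPM (-6.21 ± 1.20, edgeR adjusted p = 0.000204), with -3.64 without 020816_09 (adjusted p = 0.00424).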
